A study of Mus musculus with 24 samples.

Results

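Neurog1, Neurog2, Neurod1 and Neurod4, which encode proneural factors, and Dcx, Tubb3, Elavl3, Elavl4 and Stmn2, which are commonly used as neuronal markers, were followed through the first 5 days of optic vesicle (OV) organoid culture. These 9 genes were chosen by name, as the rows of the normalized count table that carry their symbols, from 49705 gene entries in all. All 9 passed the filter on low values, so that each was among the 21005 genes tested. The filter asked for 10 normalized counts in 3 libraries, which Neurog1 (8 libraries, 6 of them GFP-negative and 2 GFP-positive) and Neurod4 (5, all GFP-negative) met only through the GFP-negative gate, where they are high. The organoids were made from Rx-GFP K/I EB5 cells, 1 mouse embryonic stem cell line in which GFP was inserted at Rax (Rx), an eye field transcription factor gene. Every group therefore carried the same reporter allele, and no group had a drug or genotype contrast.

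The 24 libraries fell into 8 groups of 3 replicates. Live cells were collected on day 0 (embryonic stem cells), day 1, day 2 and day 3, from 24 pooled organoids per sample. On days 4 and 5 the live cells of such a pool were sorted into a GFP-negative and a GFP-positive sample. Both gates thus came from the same pools, but they were tested unpaired, with the replicate number as a block as an alternative. The labels do not say whether equal replicate numbers mark the same pool. The gates split a continuous range of reporter levels, and the GFP-negative samples include part of the dimmer cells. Day 3 samples held all live cells regardless of GFP. A rise or fall of a gate against day 3 therefore mixes time with the choice of cells, and these cannot be told apart. The labels do not say whether replicates came from separate differentiations, and p-values then measure only the spread between these samples. Normalized counts summed to 39849111 to 51587535 per library, and 1 read was worth about 0.787 to 1.39 normalized counts, so values below about 20 rested on few reads. These include most values of Neurog1 and Neurod4, several of Dcx, those of Neurog2 up to day 2 and in day 5 GFP-positive cells, and those of Neurod1 in GFP-positive cells. Day 0 replicate 1 stood apart, with rank correlations of 0.953 to 0.954 with the other day 0 libraries, whereas other replicate pairs reached 0.979 to 0.993.

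Proneural factors are basic helix-loop-helix (bHLH) proteins that pair with E proteins, bind E-box DNA (CANNTG) and switch on both the Notch ligand Dll1 and the neuronal programme. Notch signalling in the neighbouring cells induces Hes and Hey repressors, which hold proneural genes down and keep those cells as progenitors. Neurogenins act early in this sequence, NeuroD factors usually follow, and neuronal markers such as doublecortin (Dcx), βIII-tubulin (Tubb3), the Hu RNA-binding proteins (Elavl3 and Elavl4) and stathmin-2 (Stmn2) mark the cells that leave the cycle. In the eye the first neurons appear only after the optic cup has formed, and an OV on day 5 is a progenitor epithelium.

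Promoter sequence is shown for Neurog1 and Elavl4, the 2 of the 9 genes called higher than day 3 in day 5 GFP-negative cells, and for Elavl3, the paralogue of Elavl4, which was called lower. Each window is the 250 bases before a RefSeq start site on build GRCm38.p6, all on the minus strand and printed 5′ to 3′ in the direction of the gene. Capitals mark CANNTG, the E-box, and TAATTA, a core recognised by many homeodomain proteins. Neurog1 (chr13:56252181-56252430) lies upstream of the gene. Elavl3 (chr9:22052024-22052273) lies upstream of Elavl3 and within an intron of the overlapping gene Gm49318. Elavl4 has 4 listed starts, and the windows before the outermost (chr4:110351912-110352161, upstream of the gene) and the second (chr4:110287528-110287777, within the gene but in no annotated exon) are given as the one with neither motif and one of the 2 with most matches.
Neurog1: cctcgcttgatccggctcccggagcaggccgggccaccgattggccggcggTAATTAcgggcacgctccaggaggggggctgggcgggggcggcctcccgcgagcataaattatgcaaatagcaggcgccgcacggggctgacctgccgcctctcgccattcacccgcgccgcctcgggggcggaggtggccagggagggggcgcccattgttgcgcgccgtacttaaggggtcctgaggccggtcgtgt
Elavl3: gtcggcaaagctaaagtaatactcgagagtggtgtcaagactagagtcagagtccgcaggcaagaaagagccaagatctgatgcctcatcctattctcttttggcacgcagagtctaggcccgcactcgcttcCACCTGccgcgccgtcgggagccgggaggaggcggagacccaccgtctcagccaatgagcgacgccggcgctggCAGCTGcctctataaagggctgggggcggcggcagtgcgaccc
Elavl4, outermost start: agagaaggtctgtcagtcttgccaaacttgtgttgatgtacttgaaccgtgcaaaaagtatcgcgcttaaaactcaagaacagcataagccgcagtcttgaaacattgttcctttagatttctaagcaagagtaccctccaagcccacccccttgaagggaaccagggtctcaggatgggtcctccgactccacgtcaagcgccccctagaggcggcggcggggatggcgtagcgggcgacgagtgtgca
Elavl4, second start: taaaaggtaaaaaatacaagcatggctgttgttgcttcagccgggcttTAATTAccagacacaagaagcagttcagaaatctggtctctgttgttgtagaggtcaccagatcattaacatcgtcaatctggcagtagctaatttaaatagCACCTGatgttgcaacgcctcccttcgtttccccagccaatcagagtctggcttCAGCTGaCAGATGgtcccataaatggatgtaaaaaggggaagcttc

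The Neurog1 window held 1 TAATTA and no CANNTG, the Elavl3 window held 2 CANNTG and no TAATTA, and the Elavl4 windows differed. The outermost held neither motif, the next 2, which overlap, each held 3 CANNTG and 1 TAATTA, and the fourth held 1 CANNTG and no TAATTA. Of 13 windows for 8 of the 9 genes, 5 held CANNTG, against 66.2% of 32851 mouse promoter windows of the same length, and 5 held TAATTA, against 4.84%. Both motifs read the same on either strand. Windows of Neurod4, Dcx and Elavl4 overlap others of the same gene, so the windows are not independent, and Stmn2 was not matched. These matches describe the sequence and show no binding.

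Neurog1 and Neurog2, the neurogenins, had their highest levels in the GFP-negative cells of the organoids, on different days, and Neurog2 had already risen before the sort. Neurog2 (chr3:127633135-127635631, plus strand, 2 exons) was at 0, 1.27 and 1.78 normalized counts on day 0 and reached 25.6, 38.6 and 18.0 on day 3, so that the groups did not overlap. In the day 4 GFP-negative libraries Neurog2 was at 175, 169 and 173, the highest of any group, and in the day 5 GFP-negative libraries at 104, 89.7 and 84.7. Neurog2 therefore had its highest level on day 4, 1 day before Neurog1. In the GFP-positive libraries it was at 63.7, 52.2 and 49.8 on day 4, above every day 3 library, and at 9.11, 7.89 and 9.95 on day 5, below every day 3 library.

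By limma with Benjamini-Hochberg adjustment over all genes tested, Neurog2 rose from day 0 to day 3 (log2-fold-change 3.88 ± 0.46 SE, adjusted p = 6.1e-07) and from day 3 to day 4 GFP-negative cells (2.67 ± 0.46, adjusted p = 0.00024). A gene was called where the adjusted p was below 0.001 and the log2-fold-change exceeded 1.5 in either direction. The first value rested on day 0 libraries at or near 0 and moved with the pseudocount, from 4.40 with 0.5 to 2.39 with 5, and its call was lost in a fit of only the 2 groups (adjusted p = 0.0031). The second of these calls was lost when any of 5 of the 6 libraries compared was left out (adjusted p up to 0.0024), with the fold between 2.42 and 2.95 in all alternatives. Within the GFP-positive gate Neurog2 fell between days 4 and 5 by 2.49 on the log2 scale (SE 0.46, adjusted p = 0.00081), and this call too was lost when any 1 of the 6 libraries was left out (adjusted p up to 0.0063). Within the GFP-negative gate the difference between days was -0.89 ± 0.46 (adjusted p = 0.25).

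Neurog1 (chr13:56250478-56252163, minus strand, 1 exon) stayed at 7.60 normalized counts or less from day 0 to day 3. In GFP-negative cells it was at 14.6, 12.1 and 21.2 on day 4 and at 69.4, 73.5 and 75.5 on day 5, above all libraries of every other group. In GFP-positive cells it was at 0, 1.83 and 0 on day 4, about 2 reads in 3 libraries, and at 2.74, 14.9 and 15.4 on day 5. Against day 3, Neurog1 rose in day 5 GFP-negative cells (3.91 ± 0.57, adjusted p = 1.2e-05). The step from day 4 to day 5 was 2.15 ± 0.57 in the GFP-negative gate (adjusted p = 0.016) and 2.81 ± 0.57 in the GFP-positive gate (adjusted p = 0.0020), neither past the call threshold. The second rested on day 4 libraries at or near 0. It was 1.40 with a pseudocount of 5 (adjusted p = 0.0044) and passed the threshold without day 5 GFP-positive replicate 1 (3.51, adjusted p = 0.00025), with adjusted p up to 0.061 over the alternatives other than limma treat, which tests against the fold threshold itself.

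Neurod1 and Neurod4 did not share one course. Neurod1 (chr2:79452521-79456751, minus strand, 2 exons), a factor of differentiating neurons and of endocrine cells, was highest on days 0 and 1. It was at 163, 218 and 165 normalized counts on day 0 and at 191, 182 and 166 on day 1. On day 3 it stood at 52.5, 77.4 and 82.5. GFP-negative cells kept a similar level, at 91.5, 66.6 and 48.1 on day 4 and 53.8, 65.8 and 53.5 on day 5, overlapping day 3. In GFP-positive cells it was at 9.09, 13.7 and 9.45 on day 4 and at 7.28, 6.88 and 4.52 on day 5, below every GFP-negative library.

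In day 4 GFP-positive cells Neurod1 was lower than in the unsorted day 3 cells by 2.61 (log2 units, SE 0.25, adjusted p = 3.3e-08), and the day 5 value was -3.31 (adjusted p = 5.7e-10). Its difference between day 3 and day 0 was -1.36 ± 0.25 (adjusted p = 0.00014), under the fold threshold. Exons of Neurod1 overlap Cerkl on the same strand and the lincRNA gene Gm26755 on the other, and the strandedness of the counting is not given in the sources used here, so its value may include reads of those genes.

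Neurod4 (chr10:130268152-130280240, minus strand, 2 exons), a factor that follows the neurogenins in differentiating neurons, stayed at 6.84 normalized counts or less up to day 3. It was at 12.8, 11.4 and 3.52 in day 4 GFP-negative cells, at 14.4, 32.1 and 30.5 in day 5 GFP-negative cells, and at 6.41 or less in all GFP-positive libraries. Its day 5 GFP-negative libraries lay above all others, and the difference from day 3 was 1.97 ± 0.51 (adjusted p = 0.0043), short of the call threshold.

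**Figure D1:**
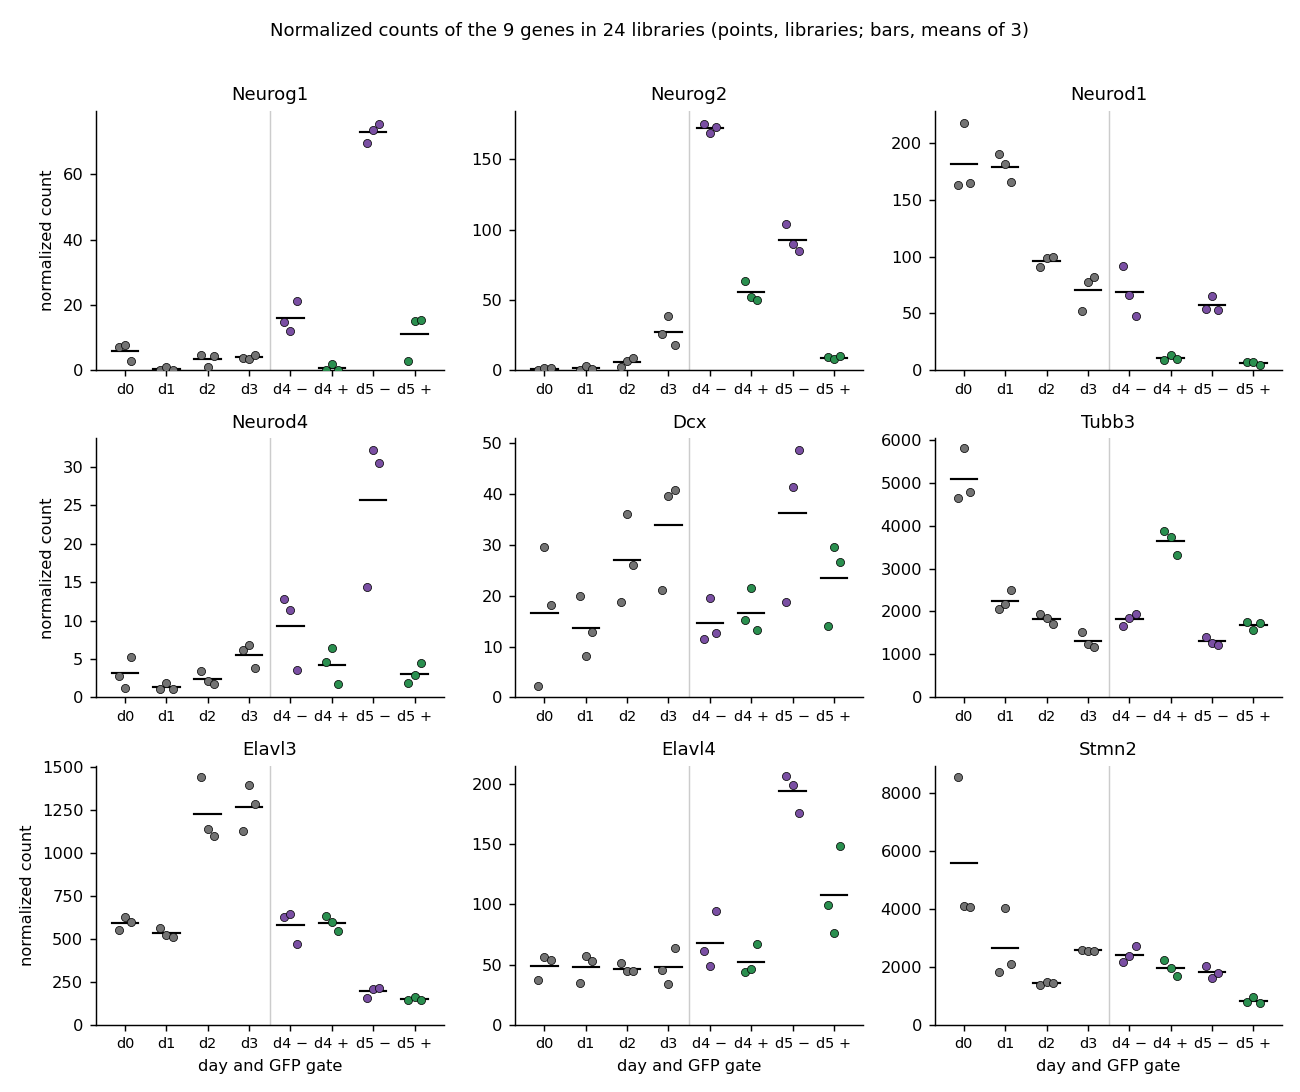
Normalized counts (y axis, linear, from 0) of each gene in the 8 groups (x axis, d0 to d5, with − for GFP-negative and + for GFP-positive cells). Points are libraries and bars are means of 3. Neurog1, Neurog2 and Neurod4 have their highest libraries in GFP-negative cells of day 4 or 5, whereas Tubb3, Stmn2 and Neurod1 have theirs on day 0.

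The 5 neuronal markers did not move as a group. Tubb3 (chr8:123411424-123422015, plus strand), the neuronal β-tubulin, was highest in stem cells, at 4640, 5795 and 4791 normalized counts on day 0, and was at 1520, 1254 and 1164 on day 3. It then stood at 3884, 3737 and 3315 in day 4 GFP-positive cells, above the 1669, 1853 and 1937 of day 4 GFP-negative cells, and at 1759, 1567 and 1739 in day 5 GFP-positive cells, above the 1402, 1277 and 1227 of the GFP-negative gate. The Tubb3 groups of each day did not overlap, and on both days the GFP-positive cells, with the lower proneural levels, held the higher Tubb3.

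Between day 0 and day 3 Tubb3 fell by 1.95 on the log2 scale (SE 0.12, adjusted p = 3.2e-11). Its difference between day 4 GFP-positive cells and day 3 was 1.48 ± 0.12 (adjusted p = 1.8e-09), just under the fold threshold, and it passed without day 3 replicate 1 (1.59) or day 4 GFP-positive replicate 3 (1.55). The gates differed by 1.00 ± 0.12 on day 4 (adjusted p = 1.9e-06), and the day 5 difference was 0.38 ± 0.12 (adjusted p = 0.031). Exons of Tubb3 overlap Gm20388 on the same strand, and how reads common to both were divided is not given in the sources used here.

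Stmn2 (chr3:8509360-8561606, plus strand), a microtubule-destabilising protein of growing axons, was likewise abundant in stem cells. It was at 8548, 4112 and 4070 normalized counts on day 0, where replicate 1 stood apart, at 1378, 1477 and 1437 on day 2, and at 2586, 2546 and 2553 on day 3. In GFP-positive cells of day 5 it was at 778, 951 and 757, the lowest of all groups, against 2039, 1621 and 1783 in the GFP-negative gate.

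Against day 0, Stmn2 fell on day 2 by 1.87 on the log2 scale (SE 0.25, adjusted p = 6.2e-06) and by 1.52 without day 0 replicate 1. It also fell in day 5 GFP-positive cells against day 3, by 1.63 (SE 0.25, adjusted p = 1.4e-05).

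The Hu genes Elavl3 and Elavl4, whose products bind and stabilise neuronal mRNAs, went in opposite directions. Elavl3 (chr9:22015005-22052023, minus strand) was at 549, 629 and 599.6 normalized counts on day 0 and at 1129, 1397 and 1287 on day 3, its highest level together with day 2. It dropped to 625, 646 and 470.1 in GFP-negative and 635, 601 and 547 in GFP-positive cells of day 4, and to 158, 209 and 214 and 146, 161 and 145 on day 5. The gates overlapped on both days, and each day's libraries lay below those of the day before.

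Elavl3 fell against day 3 by 2.72 on the log2 scale in day 5 GFP-negative cells (SE 0.15, adjusted p = 1.0e-11). In day 5 GFP-positive cells it fell by 3.065 (SE 0.15, adjusted p = 3.8e-13). Both comparisons share the day 3 libraries. Between day 4 and day 5 it fell by 1.58 in the GFP-negative (adjusted p = 4.4e-07) and by 1.97 in the GFP-positive gate (adjusted p = 1.5e-08). The first of these calls was lost on the fold threshold without day 4 GFP-negative replicate 2 (-1.49) or day 5 GFP-negative replicate 1 (-1.44). Its rise from day 0 to day 3 had a log2-fold-change of 1.10 ± 0.15 (adjusted p = 3.1e-06), under the fold threshold. Exons of Elavl3 overlap Gm49318 on the same strand, so its values are uncertain to the extent that reads were shared.

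Elavl4 (chr4:110203722-110351909, minus strand) was between 34.2 and 63.9 normalized counts in all libraries of days 0 to 3. It was at 207, 199 and 176 in day 5 GFP-negative cells and at 99.8, 75.9 and 149 in day 5 GFP-positive cells, both groups above day 3. Elavl4 rose in GFP-negative cells (2.04 ± 0.30, adjusted p = 1.2e-05), and in GFP-positive cells the difference from day 3 was 1.15 ± 0.30 (adjusted p = 0.0030), under the fold threshold.

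Dcx (chrX:143855842-143933311, minus strand), a microtubule-associated protein of migrating neurons, stayed low and variable, from 2.17 normalized counts in a day 0 library to 48.6 in a day 5 GFP-negative library. It passed the call threshold in none of the 12 comparisons. On day 5 it was at 18.7, 41.3 and 48.6 in GFP-negative and 14.1, 29.5 and 26.7 in GFP-positive cells, which overlapped, with a log2 difference of -0.57 and a 95% confidence interval from -1.81 to 0.68, which spans both a large decrease and no change.

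Before the sort few of the 9 genes were called. From day 0 to day 1 there were 0 of 9 in either direction by limma where 0.343% of all genes tested were called higher and 0.395% lower. On day 2 against day 0 there were 0 of 9 higher and 1 lower (Stmn2), against 3.06% and 3.01% of all genes, and 2 were lower, with Tubb3, when day 0 replicate 1 or 3 or day 2 replicate 1 was left out. On day 3 against day 0, 1 was higher (Neurog2) and 1 lower (Tubb3), against 5.91% and 6.12%.

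Against day 3, the genes called higher were 2 neurogenins and Elavl4, all in the GFP-negative gate. On day 4, 1 of 9 was higher in GFP-negative cells (Neurog2) and 0 lower, against 2% and 0.871% of all genes, and 0 were higher and 1 lower (Neurod1) in GFP-positive cells, against 3.33% and 7.36%. On day 5, 2 were higher (Neurog1 and Elavl4) and 1 lower (Elavl3) in GFP-negative cells, against 5.15% and 3.84%, or 1 and 1 of 7 without Neurog1 and Neurod4, and 0 were higher and 3 lower (Neurod1, Elavl3 and Stmn2) in GFP-positive cells, against 5.05% and 9.42%. The comparisons of both gates share the day 3 libraries, which were not split by GFP.

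**Figure D2:**
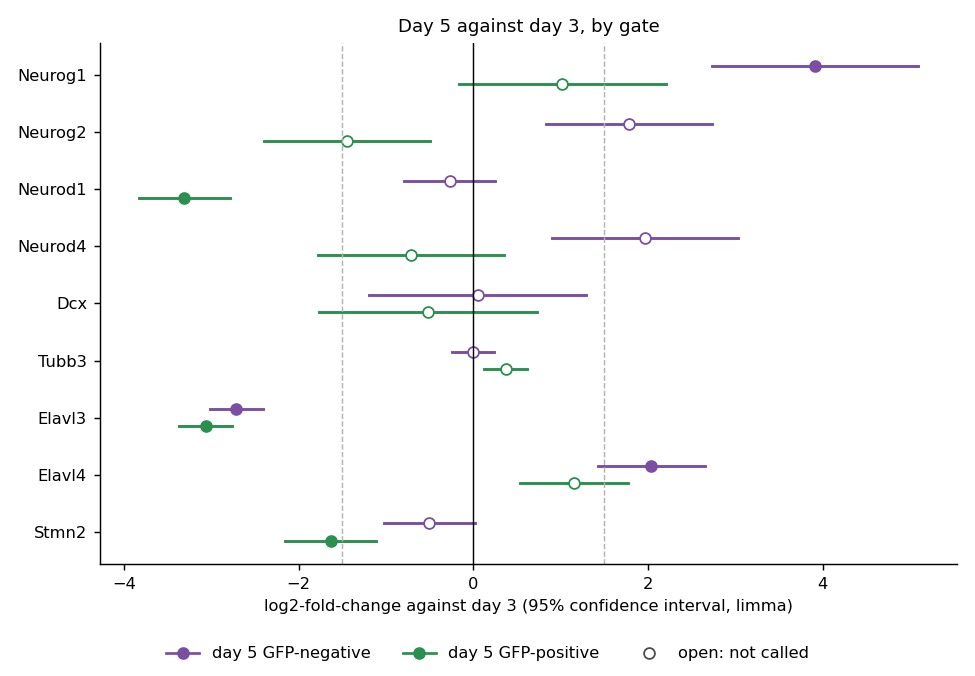
Log2-fold-change against day 3 (x axis) of each gene in day 5 GFP-negative and day 5 GFP-positive cells, with 95% confidence intervals from limma. Filled points passed the call threshold, open points did not, and dashed lines mark the fold threshold of 1.5. Neurog1 and Elavl4 are filled to the right for GFP-negative cells, and Elavl3 is filled to the left for both gates.

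From day 4 to day 5, 0 of 9 were higher and 1 lower (Elavl3) within the GFP-negative gate, against 0.762% and 0.509% of all genes, and Elavl4 passed as well (1.80) without day 4 GFP-negative replicate 3. Elavl4 also passed with the replicate number as a block. Within the GFP-positive gate 0 were higher and 2 lower (Neurog2 and Elavl3), against 0.595% and 0.89%.

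On day 5 the gates differed in the proneural factors. Neurog2 and Neurod1 were lower in GFP-positive cells, as were Neurog1 and Neurod4, which passed the filter on low values only through the GFP-negative gate, and 0 of the 5 neuronal markers was called. Neurog2 had means of 92.8 ± 9.99 normalized counts in GFP-negative and 8.98 ± 1.04 in GFP-positive cells (SD, n = 3 each), a ratio of 10.3. Neurod1 had 57.7 ± 7.01 and 6.23 ± 1.49, a ratio of 9.27. The GFP-positive libraries of both genes were at 9.95 or less, so these ratios rest on few reads. Neurod4 had 25.7 ± 9.79 and 3.09 ± 1.36, and Neurog1 72.8 ± 3.11 and 11 ± 7.17, ratios of 8.30 and 6.61.

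None of these 4 pairs of groups overlapped. On the log2 scale GFP-positive minus GFP-negative cells gave -3.23 ± 0.46 for Neurog2 (adjusted p = 1.9e-05), -3.04 ± 0.25 for Neurod1 (adjusted p = 1.3e-08), -2.68 ± 0.51 for Neurod4 (adjusted p = 0.00058) and -2.90 ± 0.57 for Neurog1 (adjusted p = 0.00075). Their median was -2.97, and that of Neurog2 and Neurod1 alone -3.13, against -0.0017 for all genes tested. In all, 4 of 9 genes were called lower and 0 higher, where 4.61% and 0.4% of all genes tested were. Without Neurog1 and Neurod4, 2 of 7 were called lower.

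The calls of Neurog2 and Neurod1 held under every alternative tried, whereas those of Neurog1 and Neurod4 were near the threshold. Both of the latter were lost with the replicate number as a block (adjusted p = 0.0013 and 0.0011, with 2 of 9 genes left), and both were lost without day 5 GFP-negative replicate 2 or 3 or without day 5 GFP-positive replicate 1 (2 of 9 genes left). Neurog1 alone was lost without GFP-negative replicate 1, and Neurod4 alone without GFP-positive replicate 2 or 3. Over all alternatives the log2 difference stayed between -3.26 and -2.19 for Neurog1 and between -3.03 and -1.88 for Neurod4, with adjusted p up to 0.014 and 0.0066 (limma treat apart).

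Among the markers, the day 5 values of GFP-positive minus GFP-negative cells were -1.13 ± 0.25 for Stmn2 (adjusted p = 0.0023), -0.89 ± 0.30 for Elavl4 (adjusted p = 0.044), -0.35 ± 0.15 for Elavl3 (adjusted p = 0.12) and 0.38 ± 0.12 for Tubb3. The libraries of Stmn2, Elavl4 and Tubb3 did not overlap between the gates. In all, 7 of the 9 genes did not overlap between the gates on day 5, 1 higher and 6 lower in GFP-positive cells, against 16.0% and 20.8% of all genes tested. Without Neurog1 and Neurod4 these were 5 of 7, 1 higher and 4 lower.

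On day 4, 2 of 9 genes were called lower in GFP-positive cells (Neurog1 and Neurod1) and 0 higher, against 3.63% and 0.328% of all genes tested. Without Neurog1 and Neurod4, 1 of 7 was called lower. Neurod1 differed by -2.54 ± 0.25 (adjusted p = 2.1e-07). The value for Neurog1, -3.55 ± 0.57 (adjusted p = 9.4e-05), rested on libraries at or near 0 and moved with the pseudocount, from -4.27 with 0.5 to -1.90 with 5, and its call was lost without day 4 GFP-positive replicate 1 or 3 (adjusted p = 0.0011 for each). Neurog2 differed by -1.63 ± 0.46 (adjusted p = 0.017), with no overlap between libraries, and Neurod4 by -0.93 ± 0.51 (adjusted p = 0.27), with overlap.

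The gate difference itself was not shown to change between days. As an interaction within the 1 fit, 0 of 9 genes were called, against 0.0762% of all genes higher and 0.0333% lower. The change from day 4 to day 5 was -1.60 for Neurog2 (95% confidence interval -2.95 to -0.25, adjusted p = 0.38) and -1.75 for Neurod4 (-3.25 to -0.24, adjusted p = 0.40). At an unadjusted p under 0.05, 4 of the 9 genes passed, these 2 with Stmn2 and Tubb3, whose change was -0.63 (adjusted p = 0.074), against 9.4% of all genes tested. Of the 4, Neurod4 passed the filter on low values only through the GFP-negative gate.

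With the looser rule of an adjusted p under 0.05 and no fold threshold, the counts have to be read against larger shares of all genes. Against day 0, 3 of 9 passed on day 1, 5 on day 2 and 5 on day 3, where 10%, 30.4% and 43.6% of all genes did. Against day 3, 4 passed in day 4 GFP-positive and 4 in day 4 GFP-negative cells (37.9% and 18.5% of all genes), and 6 and 5 in those of day 5 (44.5% and 37.1%). From day 4 to day 5, 6 passed within the GFP-positive and 4 within the GFP-negative gate (9.8% and 10.2%), and between the gates 4 passed on day 4 and 7 on day 5 (15.7% and 16%). These counts include genes that passed the filter on low values only through the GFP-negative gate. Between the gates these were Neurog1 on both days and Neurod4 on day 5. The others were Neurog2, Neurod1 and Tubb3 on both days, with Stmn2 and Elavl4 on day 5.

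**Figure D3:**
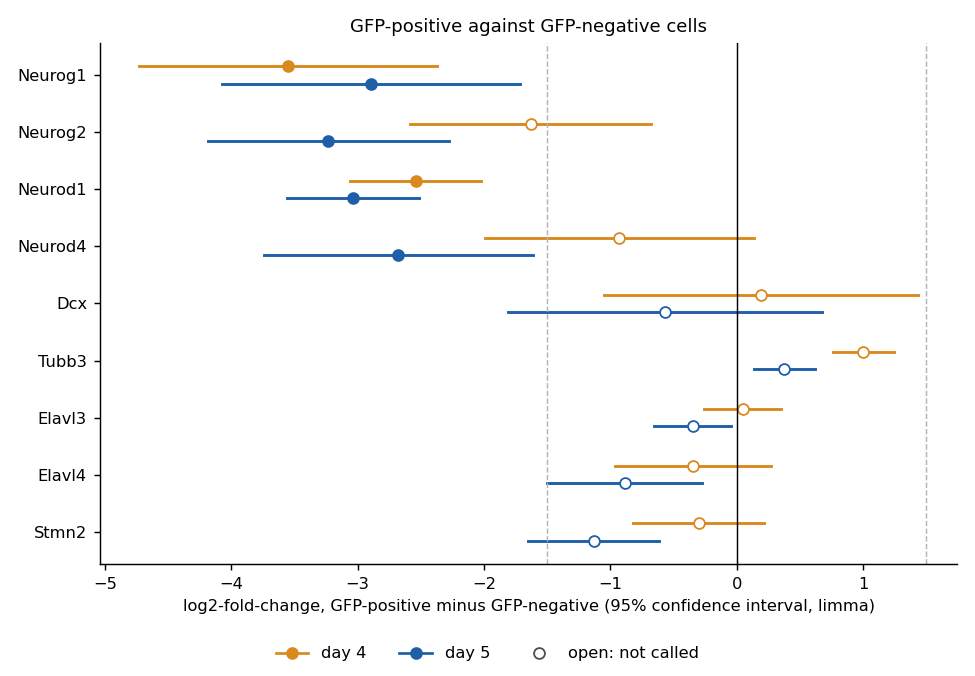
Log2-fold-change of each gene between GFP-positive and GFP-negative cells (x axis, negative where lower in GFP-positive cells) on day 4 and day 5, with 95% confidence intervals from limma. Filled points passed the call threshold and dashed lines mark the fold threshold of 1.5. On day 5 the 4 proneural factors are filled between -3.23 and -2.68, and the 5 markers are open between -1.13 and 0.38.

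The gates also differed in markers of cells other than the eye field. In these bulk samples fewer cells of a type and less RNA per cell cannot be told apart. On day 5 the summed level of 6 eye field and OV markers lay between 4161 and 4546 normalized counts in GFP-negative and between 37528 and 41608 in GFP-positive libraries, and 6 of 6 were called higher in GFP-positive cells. Between these gates 0.4% of all genes tested were higher and 4.61% lower, the shares against which the marker counts that follow are to be read. Rax itself was at 447 ± 60.6 and 8608 ± 463.

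The markers of midbrain and posterior neural tissue summed to 13008 to 16136 in day 5 GFP-negative and 6585 to 7482 in GFP-positive libraries, with 4 of 7 lower in GFP-positive cells (Irx3, Lmx1b, En2 and En1) and 1 higher (Pax2). The 6 neural crest markers summed to 1778 to 2518 and 406 to 539 (3 lower, Ets1, Sox10 and Foxd3), the 6 mesendoderm markers to 4445 to 5471 and 254 to 426 (6 lower), and the 6 pluripotency markers to 6037 to 7296 and 409 to 540 (6 lower). Endothelium and blood markers summed to 1539.8 to 2492 and 755 to 913, with 2 of 6 lower (Tal1 and Cdh5). The neural crest sum had been higher before the sort, at 4161 to 4838 on day 2 and 2885 to 3181 on day 3.

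Some markers of spinal and hypothalamic and of retinal neurons were also lower in GFP-positive cells. The 6 spinal and hypothalamic neuron markers summed to 705 to 943 in day 5 GFP-negative and 142 to 222 in GFP-positive libraries, with 2 of 6 lower (Lhx1 and Isl1), against 4.61% of all genes. The retinal ganglion and photoreceptor markers summed to 559 to 664 and 409 to 529. Of these, 5 of 6 were tested and 3 were lower in GFP-positive cells (Sncg, Pou4f2 and Isl1), the first 2 of them at 11.3 and 6.09 normalized counts or less on average in both gates. Crx, a photoreceptor factor, averaged 94.4 ± 11.8 in GFP-negative and 143 ± 34.1 in GFP-positive cells and Pou4f1 271 ± 40.2 and 277 ± 29.0, neither called, and Atoh7, the factor that defines competence for ganglion cells, did not pass the filter. Cranial placode markers summed to 1576 to 1598 and 2117 to 2315, with 1 of 6 higher (Eya2), against 0.4%. No marker of these lists was at 0 in all libraries of a day 5 gate. The part of these marker lists in the proneural result was not tested.

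**Figure D4:**
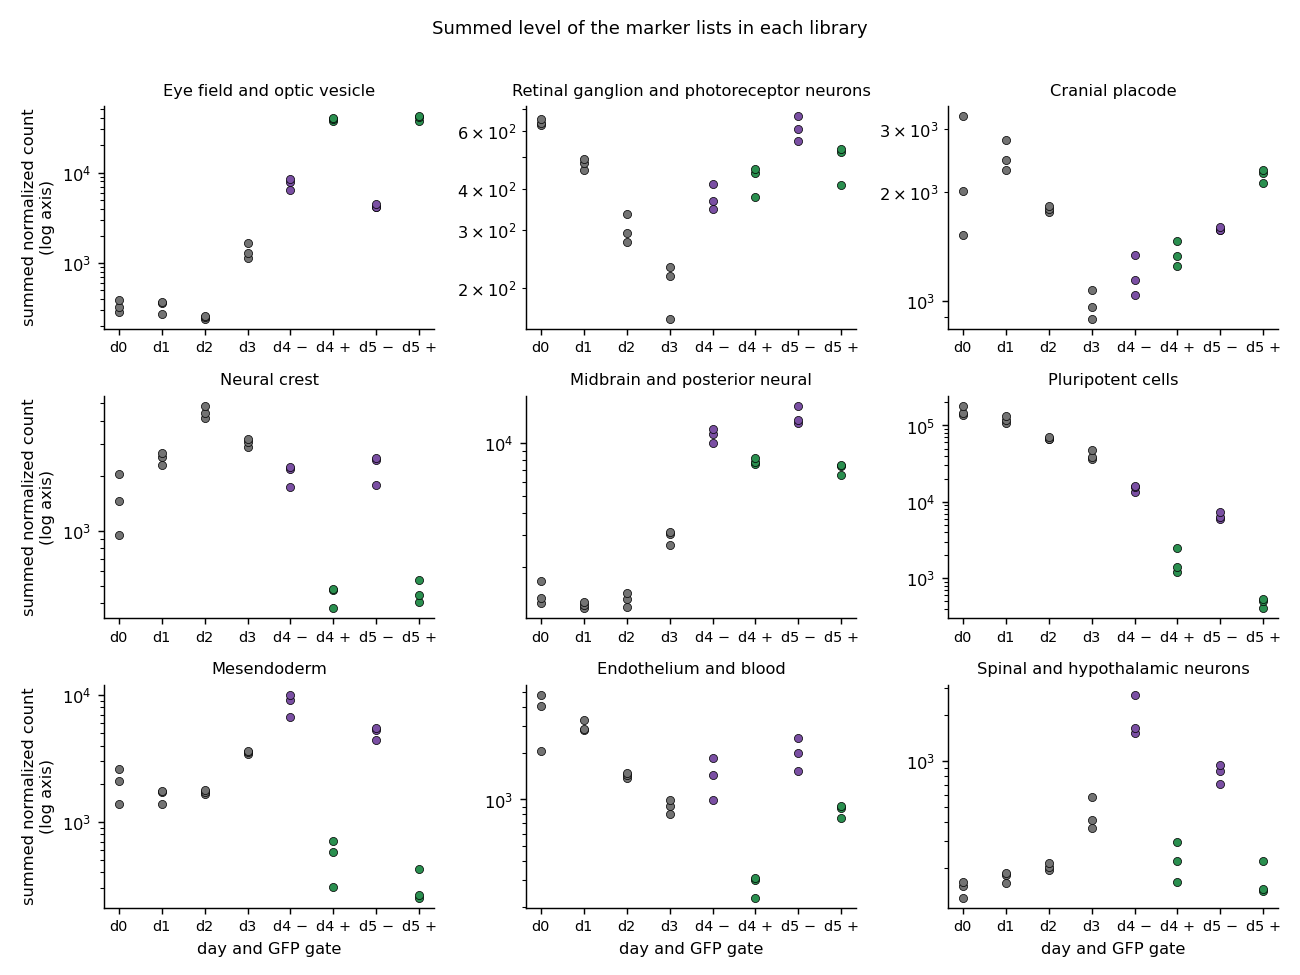
Summed normalized counts (y axes, log scale) of 9 lists of cell type markers in each library of the 8 groups (x axes, d0 to d5, − GFP-negative and + GFP-positive). Points are libraries. Eye field and OV markers are at 37203 or more in GFP-positive libraries of both days, and the pluripotency, mesendoderm and neural crest sums are lower in the GFP-positive libraries of each day.

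Some other proneural and neuronal bHLH genes also rose in GFP-negative cells. Of 12 listed, 6 passed the filter, and Neurod2, Neurod6, Atoh7, Ptf1a, Olig1 and Nhlh2 did not. In day 5 GFP-negative cells 3 of 6 rose against day 3 on the log2 scale, namely Olig2 (4.75), Olig3 (4.63) and Bhlhe22 (3.53), and 0 fell, where 5.15% and 3.84% of all genes did. The 12 listed genes together summed to only 44.1 to 69.0 normalized counts on day 3, so these folds start from low values. The sums were 297 to 391 in day 5 GFP-negative and 134 to 152 in day 5 GFP-positive libraries.

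In day 5 GFP-positive cells 2 of 6 rose against day 3 (Bhlhe22 and Olig2) and 2 fell (Neurog3 and Atoh1), against 5.05% and 9.42% of all genes. Between the gates on day 5 only Olig3, a factor of dorsal neural tube, was called among the 6 (-3.83, adjusted p = 0.00012), where 4.61% of all genes were lower, with a list median of -2.22.

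Targets of proneural factors were split. Of 20 listed targets and early differentiation genes, all tested, 3 rose in day 5 GFP-negative cells against day 3, namely Ebf2 (3.16), the Notch ligand Dll1 (2.72) and Ebf3 (1.96), and 0 fell, against 5.15% and 3.84% of all genes. Dll1 averaged 322 ± 31.7 normalized counts on day 3, 2116 ± 81.1 in day 5 GFP-negative and 1187 ± 116 in day 5 GFP-positive cells, and it was also called higher than day 3 in GFP-positive cells. Between the gates on day 5, 2 were lower in GFP-positive cells, Ebf2 (-3.18) and Gadd45g (-2.82), and 0 higher, against 4.61% and 0.4% of all genes, with a list median of 0.034.

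Insm1, a target that promotes delamination and differentiation, was among the 4 of 20 called higher than day 3 in day 4 GFP-positive cells, with Cbfa2t3, Myt1 and Dll1, whereas Gadd45g was lower, against 3.33% and 7.36% of all genes. On day 4, 3 of 20 were lower in GFP-positive than GFP-negative cells, Dll3, Gadd45g and Ebf2, against 3.63%.

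Of 14 brakes on proneural factors (Hes, Hey and Id genes, Notch receptors, Rest and Rcor1), 4 rose in day 5 GFP-negative cells against day 3, Hes3 (4.94), Hes5 (3.19), Hey2 (2.67) and Id2 (1.77), and 4 in GFP-positive cells, Id2, Hes1, Hes3 and Hes5, against 5.15% and 5.05% of all genes. Between the gates on day 5 Hes3 (-2.98) and Hey2 (-1.63) were lower in GFP-positive cells and 0 higher, against 4.61% and 0.4% of all genes, and the list median was -0.091. Hes1, a main effector of Notch, averaged 1873 ± 229 and 3587 ± 413 in GFP-negative and GFP-positive cells, a difference below the fold threshold. On day 4, 0 of 14 were called between the gates.

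Some other neuronal genes changed before the sort, and several synaptic genes fell after it in the GFP-positive gate. Among 28 other genes of neuronal structure and RNA binding, 9 rose and 3 fell (Mapt, Tubb2b and Tubb2a) from day 0 to day 3, before the sort, against 5.91% and 6.12% of all genes, with a median of 0.80. In day 5 GFP-negative cells against day 3, 1 rose (Tagln3, 1.76) and 1 fell (Cntn2, -3.24), and in GFP-positive cells 2 rose (Nrcam and Tagln3) and 2 fell (Ina and Cntn2). These counts are near the shares of all genes, 5.15% and 3.84% in the first comparison and 5.05% and 9.42% in the second. Between the gates on day 5, Gap43, a growth cone protein, was the only one called (-1.51), 1 of 28 where 4.61% of all genes were lower, with a list median of -0.11.

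Of 18 synaptic and excitability genes, 6 rose and 0 fell from day 0 to day 3, against 5.91% and 6.12% of all genes. In day 5 GFP-negative cells 1 rose against day 3 (Nsg1, 1.74) and 2 fell (Syt4, -3.15, and Gng3, -2.37), against 5.15% and 3.84%. In day 5 GFP-positive cells 1 rose against day 3 (Nsg1) and 6 fell (Cacna1b, Syt4, Slc17a6, Syp, Slc32a1 and Gng3), against 5.05% and 9.42% of all genes, and in day 4 GFP-positive cells 1 rose (Nsg1) and 4 fell (Syt4, Slc17a6, Syp and Gad1), against 3.33% and 7.36%. In day 4 GFP-negative cells 0 of 18 were called against day 3. Between the gates on day 5 Gad1, the enzyme that makes GABA, was lower in GFP-positive cells (-3.88) and Syt1, the calcium sensor of synaptic vesicles, was higher (2.39), each 1 of 18, against 4.61% and 0.4% of all genes.

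Some progenitor genes rose in both gates. Of 14 listed, 5 rose in day 5 GFP-negative cells against day 3, among them Pax6 (5.05), Sox1 (4.81), Ccnd2 (4.04) and Hes5, and 1 fell (Slc1a3), against 5.15% and 3.84% of all genes. In GFP-positive cells 4 rose (Ccnd2, Pax6, Hes5 and Sox1) and 1 fell (Slc1a3), against 5.05% and 9.42%. Between the gates on day 5 Pax6 was higher in GFP-positive cells (1.83), and Fabp7 (-2.77) and Slc1a3 (-1.92) were lower, against 0.4% and 4.61% of all genes. Hes5 and Notch1 are members of both this list and the brakes, and Isl1 of 2 marker lists.

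**Figure D5:**
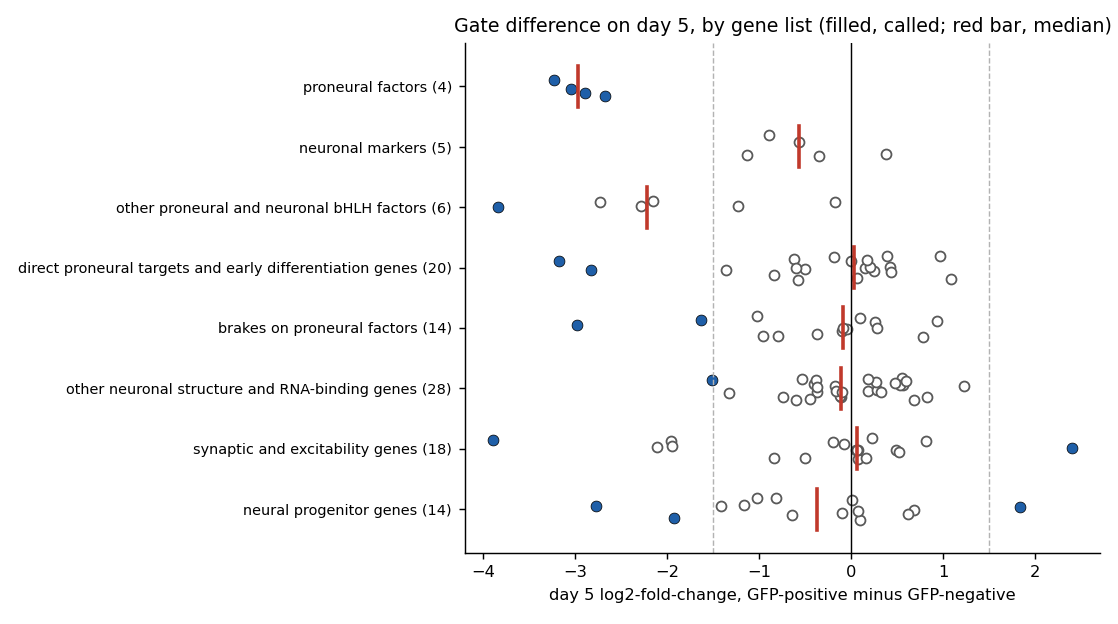
Log2-fold-change between the day 5 gates, GFP-positive minus GFP-negative (x axis), of each gene tested in the lists (rows, number tested in brackets). Filled points passed the call threshold, open points did not, and red bars are medians. The median of the 4 proneural factors, 2 of which passed the filter only through the GFP-negative gate, is at -2.97, that of the 5 neuronal markers at -0.57 and that of the 20 targets at 0.034.

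Levels can be compared between genes per length of transcript. Per kilobase of the longest annotated coding transcript, Tubb3 and Stmn2 were the 2 highest of the 9 genes in every group, from 2717 and 2690 normalized counts per kilobase on day 0 to 904 and 400 in day 5 GFP-positive cells. Neurog1, Neurog2 and Elavl4 were close in day 5 GFP-negative cells, at 43.2 ± 1.84, 41.7 ± 4.49 and 46.7 per kilobase. The proneural factors were thus far below Tubb3 and Stmn2 on the per-length scale in every group, stem cells included.

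Across the 24 libraries, as a description that mixes days and gates, the log2 levels of Neurog1 followed those of Elavl4 (Pearson r = 0.75) and Neurod4 (0.75), and Neurog2 followed Neurod4 (0.70). Neurod1 was closest to Stmn2 (0.65), and Elavl3 ran against Elavl4 (-0.79). Among all genes tested the closest to Neurog1 were Has2 (0.88), Irx2 (0.87) and Man1a (0.87), and the closest to Neurog2 were Slc13a4 (0.97), Adra2b (0.95) and Aplnr (0.95). The closest to Neurod1 were AU018091, Slc44a4 and Zc3hav1 (each 0.98), and the closest to Neurod4 were Ednrb (0.84), Afap1l1 (0.83) and Ano1 (0.83). Elavl3 was nearest to Ahr (0.95), Tubb3 to Fam83d (0.89), Elavl4 to Gm16574 (0.91), Stmn2 to Gm9918 (0.89) and Dcx to Cacna1e (0.76).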

How the data were processed

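Poly(A) RNA of 24 samples was sequenced from TruSeq libraries. The authors quantified reads by kallisto 0.43.1 against an Ensembl transcript index (coding plus non-coding, mouse build mm10) and divided gene values by DESeq2 size factors (the submitters' processing notes name both tools). The authors deposited these values as a normalized signal for each gene, not as whole reads: only 45.5% to 76.8% of values up to 20 reads lay within 0.1 of a whole multiple of 1 read, so no count model was run. How strands, transcripts of a gene and shared reads were treated is not given in the sources used here. Columns with the authors' own calls (EF-up, EF-down, successive days, stable genes) were not used.

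Groups came from the labels, and all 24 value columns were matched to a sample. Log2(value + 1) was taken for 21005 genes that reached 10 in 3 or more libraries, and was fitted with limma 3.58.1 in R 4.3.3 (1 fit of all libraries, eBayes with trend, no block). A fold change is on that scale, which understates low genes. Calls needed an adjusted p under 0.001 (Benjamini-Hochberg per comparison, 12 comparisons) and a log2-fold-change beyond 1.5 either way, as in the study. The median residual SD was 0.308. In simulated data for day 5 GFP-negative cells against day 3, 92% of 100 genes planted at a log2 change of 2 and 95% of 100 planted at 3 were recovered, with 0 other calls among 21005 genes. The noise was normal, and planted genes were drawn only from those with a mean log2 level above that of 50 normalized counts. The recovery therefore does not describe lower genes, such as Neurog1, Neurod4 and Dcx.

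The members and the lists were chosen with earlier results of these data known. All 9 members are named, and of each list at most 4 genes per comparison, those with the largest fold among called genes whose libraries do not overlap in the 2 day 5 comparisons, and the 3 genes closest in Pearson r to a member. Further list genes were named after their values were seen, among them Dll3, Insm1 and Hes1. Some genes of the lists are not reported here. Same-numbered replicates of day 5 GFP-negative and day 3 deviated together (r = 0.40, 0.17 and 0.13). For day 4 GFP-positive against day 3 the values were 0.13, 0.015 and 0.072. In the remaining comparisons r was not positive in every pair, and the block was an alternative. Tables and figures were made with Python 3.11.15, numpy 2.4.6, pandas 2.3.3 and matplotlib 3.10.9. Promoter windows came from RefSeq (GRCm38.p6), and gene spans equal those of GENCODE for all 9 genes.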

Additional observations from a re-analysis of the deposited data

How the results depend on the processing

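Every count of called members was recomputed under 219 alternatives in all, of which 160 were within 1.5 times the reported count and 59 were not. All 54 single log2-fold-changes kept their direction in all 975 values. For day 5 GFP-positive against GFP-negative cells the 4 calls became 2 with a pseudocount of 0.5, no filter, a filter of 50 (which also drops Neurod4 and Dcx), quantile normalization, the replicate block, limma treat at 1.5 or a fit of only the groups compared. Under the last of these, calls also went from 1 to 0 for day 2 against day 0, from 2 to 1 for day 3 against day 0, from 1 to 0 for day 4 GFP-negative against day 3 and for day 5 against day 4 GFP-negative cells, from 2 to 1 for day 5 against day 4 GFP-positive cells and from 2 to 0 for the day 4 gates. With treat they went to 0 for day 2 against day 0, day 4 GFP-negative against day 3 and both comparisons of day 5 with day 4, and to 1 for the day 4 gates. Fewer samples or a stricter test are part of these 2 settings, and for the others the cause was not tested.

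A pseudocount of 0.5 gave 0 calls for day 4 GFP-negative cells against day 3 and 1 for day 5 against day 4 GFP-positive cells, as did no filter for the latter. A pseudocount of 5 gave 2 for day 5 against day 4 GFP-negative cells. Scaling to the same total gave 2 for day 4 GFP-positive cells against day 3. That scaling moved the median of all genes to 0.16 for day 5 GFP-negative cells against day 3 (67.7% of calls higher, 57.3% in the reported fit), to 0.11 for day 5 against day 4 GFP-negative cells and to -0.11 for the change between days (53.3% of calls higher, 69.6% in the reported fit). At an adjusted p under 0.05 with no fold threshold, called members were 3, 5 and 5 on days 1, 2 and 3 against day 0, 4 and 4 for day 4 GFP-positive and GFP-negative cells against day 3, 6 and 5 for day 5, 6 and 4 for day 5 against day 4 in the GFP-positive and GFP-negative gates, and 4 and 7 between gates on days 4 and 5, where 9.8% to 44.5% of all genes tested passed. Neurog1 and Neurod4, which passed the filter on low values only through the GFP-negative gate, are counted where they passed. Both are in the count between the day 5 gates.

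The replicate block left 2 calls between the day 5 gates and gave 2 (with Elavl4) for day 5 against day 4 GFP-negative cells, and changed no other count by over 1.5 times. Leaving out 1 library at a time, the lowest and highest counts were 1 and 2 for day 2 against day 0, 1 and 2 for day 4 GFP-positive and 0 and 1 for day 4 GFP-negative cells against day 3, 1 and 2 for day 5 against day 4 GFP-positive and 0 and 2 for GFP-negative cells, 1 and 2 for the day 4 gates and 2 and 4 for the day 5 gates. The depth limits mainly Neurog1, Neurod4, Dcx, Neurog2 up to day 2 and in day 5 GFP-positive cells, and Neurod1 in GFP-positive cells, whose values came from few reads.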
